A study of Mus musculus with 12 samples.

Results

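The genes described here are those of the mitochondrial respiratory chain and ATP synthase, compared between the hindlimb and forelimb autopods of wild-type mouse embryos at stage E12.5. The autopod is the distal part of the limb bud, which forms the hand or foot plate. Members were all probe sets with exactly 1 annotated symbol that begins with Nduf, Uqcr, Cox4, Cox5, Cox6, Cox7, Cox8 or Atp5, or that is Sdha, Sdhb, Sdhc or Sdhd, leaving out pseudogene symbols. This gave 179 probe sets of 90 genes, out of 45137 probe sets without the array controls and 18194 genes with a probe set of a single symbol. A further 10 probe sets matched the names but carried several symbols and were left out.

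Total RNA of 3 forelimb samples (11, 13 and 25) and 3 hindlimb samples (12, 14 and 26) was each hybridised to both arrays, A and B, of the Affymetrix MOE430 pair, 12 arrays in all. Sample numbers are those of the titles, and a number found on both designs was taken as 1 sample. Both titles of hindlimb 12 carry a further letter B that its group's other titles lack in that place, and the labels do not explain it. No strain, sex, pooling or treatment is given in the labels, and the 2 groups differ there by limb alone. No label states that samples are separate embryos or litters, so the p-values speak only of spread among these samples, which may be technical. Precision is limited by the number of arrays. The tissue label of forelimb 11 on the A array does not name the limb, and the sample was placed by its title. Its summed signal of Tbx5, the forelimb transcription factor, was 1619, beside 1805 and 1935 in the other forelimb samples and 37.3 to 188 in hindlimb. All 11 probe sets of 7 limb mesenchyme markers on the A array were bright enough to be tested, and 0 of 5 heart probe sets were.

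The respiratory chain passes electrons from NADH and succinate to oxygen and stores the energy as a proton gradient, which ATP synthase uses to make ATP. Complex I oxidises NADH, complex II oxidises succinate, complex III hands electrons from ubiquinol to cytochrome c, complex IV reduces oxygen, and ATP synthase is counted as complex V. Most subunits are encoded in the nucleus and imported, and a small set is encoded in mitochondrial DNA. Several complex IV subunits have a common form and another form known from striated muscle, testis or lung. Limb buds at this stage consist mostly of proliferating mesenchyme.

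No member passed the test between hindlimb and forelimb on either array. On the A array 148 of the 156 probe sets, of 82 genes, were bright enough to be tested, and 0 had an adjusted p under 0.05 (limma, Benjamini-Hochberg over all 15338 tested probe sets), where 0.0326% of all tested probe sets did. At an unadjusted p under 0.05 there were 3 members, against 5.54% of all tested probe sets, and the smallest adjusted p of a member was 0.860. On the B array 20 of 23 probe sets, of 18 genes, were tested. Again 0 members had an adjusted p under 0.05 by limma, where 0.0117% of the 17145 tested probe sets did. There, 0 members had an unadjusted p under 0.05, against 5.54% of all, and the smallest adjusted p was 0.904. In such bulk samples fewer cells of a type and less RNA per cell cannot be told apart.

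The differences of the members were small. Differences are hindlimb minus forelimb on the scale log2(signal + 32), where 1 would be close to 2-fold for a bright probe set. On the A array the median over the 148 members was 0.0215, with quartiles of -0.0443 and 0.0899. Over all tested probe sets the median was -0.00862, with quartiles of -0.131 and 0.0957. The difference was positive for 87 members (58.8%), where 47.8% of all tested probe sets were positive. A size above 0.2 was reached by 16 members (10.8%), and by 25.8% of all. For 133 members (89.9%) the 95% confidence interval of the difference lay within 1.5-fold in either direction, as it did for 72.4% of all tested probe sets. Within 2-fold lay 147 members (99.3%) and 96.8% of all. The median standard error was 0.123 for members and 0.160 for all. Of the 148 members, 83 had mean signals of 2000 or more, on arrays scaled to a trimmed mean of 500. Their median standard error was 0.110, against 0.179 for the 24 members under 500. The shares of members and of all tested probe sets were not matched for brightness. The interval that was not within 2-fold belonged to Cox6a2.

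**Figure D1:**
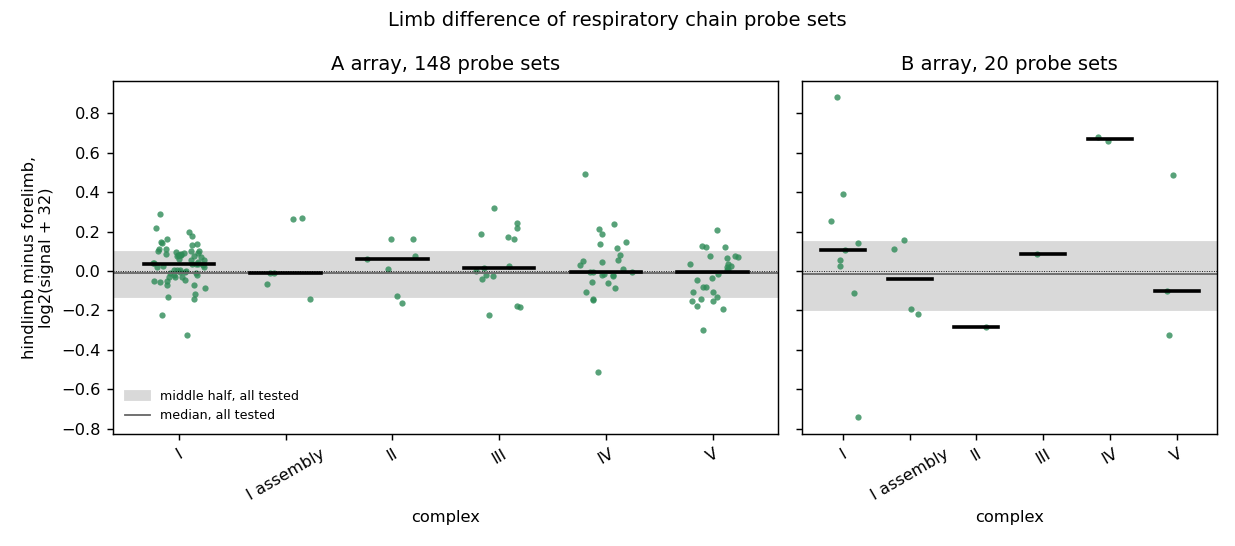
Difference between hindlimb and forelimb on the log2(signal + 32) scale for each tested member, by complex, on the A and B arrays; black bars are medians of a complex, and the grey band and line are the range between the quartiles and the median of all tested probe sets. On the A array the complex medians lie between -0.0111 and 0.0595, while the 20 members on the B array range from -0.743 to 0.883.

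The plot of differences by complex shows how near the A array medians lie to 0. Complex I had 44 of 65 differences above 0 and a median of 0.0380. Complex II had a median of 0.0595 over 7 probe sets, and complex III one of 0.0137 over 15. In complex IV 13 of 27 differences were positive, with a median of -0.00287, and in complex V 14 of 28 were, with a median of -0.00395. The 6 probe sets of complex I assembly factors had a median of -0.0111. Taking the brightest probe set of each of the 82 genes, 43 were positive and the median was 0.00450. Only the sign of the complex III median was the same in all alternatives run on the A array, and the other 5 had a median of either sign in at least 1 of them.

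Some promoter sequences are shown because the members are known as a set with shared activators, of which nuclear respiratory factor 1 (NRF1) is the best known. RefSeq promoters of GRCm38.p6, from 250 bases before to 50 bases after the start, were at hand for 74 of the 90 genes as 79 promoters. The letters GCGCANGCG on either strand, a core of the NRF1 motif, were in 21 of the 79 (26.6%), of 20 genes, and in 6.25% of all 32851 promoters of the table. Matches on the opposite strands can overlap. For 8 genes, with each complex but complex III among them, the match nearest the start that lies wholly upstream is printed 5′ to 3′ on the gene's strand, with up to 15 bases on each side. The match, or its reverse complement, is in capitals.
Ndufa8 (complex I, chr2:36049339-36049362, minus strand): gcgcgtcgctggagaCGCATGCGC
Ndufb4 (complex I, chr16:37654369-37654405, minus strand): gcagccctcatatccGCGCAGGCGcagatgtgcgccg
Ndufaf4 (complex I assembly, chr4:24897956-24897994, plus strand): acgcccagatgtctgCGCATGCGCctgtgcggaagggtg
Sdha (complex II, chr13:74350241-74350265, minus strand): cccgcgcgactcggtGCGCAAGCGc
Sdhd (complex II, chr9:50603905-50603943, minus strand): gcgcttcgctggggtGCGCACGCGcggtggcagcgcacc
Cox6a1 (complex IV, chr5:115349052-115349090, minus strand): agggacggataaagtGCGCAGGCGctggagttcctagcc
Atp5c1 (complex V, chr2:10080433-10080464, minus strand): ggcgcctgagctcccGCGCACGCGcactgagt
Atp5g2 (complex V, chr15:102671065-102671103, minus strand): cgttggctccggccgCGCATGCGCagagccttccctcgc

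Other motifs were searched in the same 300-base windows on either strand. CCGGAAG, the core bound by ETS factors such as GABP (also called NRF2), was in 19 promoters (24.1%) and in 8.86% of all. AANATGGCG, a core of the YY1 motif, was in 10 (12.7%) and in 2.38% of all. GGGCGG, the Sp1 core, was in 36 (45.6%) and in 35.7% of all, and TATAAA, the TATA box, in 9 (11.4%) and in 13.6%. Any of the first 3 motifs was in 42 member promoters (53.2%) and in 15.4% of all. Member promoters had a median GC content of 59%, against 52.7% for the table, so a motif rich in G and C has more chances there. A match is a description of the letters and no measurement of binding.

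**Figure D2:**
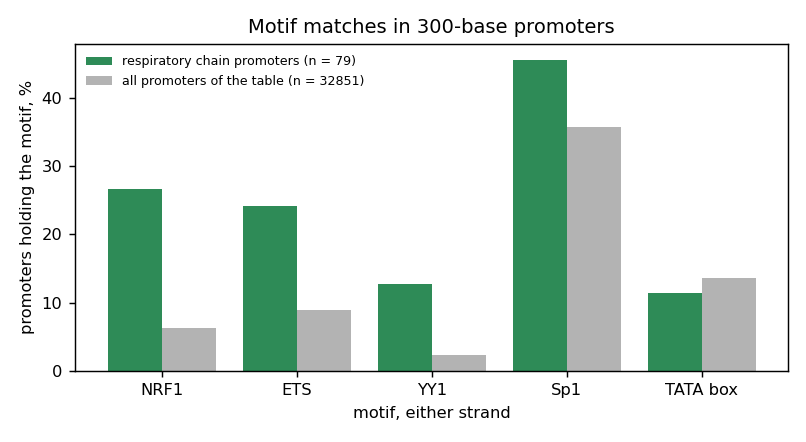
Share of promoters that hold each motif on either strand, in percent, for the 79 respiratory chain promoters (green) and for all 32851 promoters of the table (grey). The NRF1 letters are in 26.6% against 6.25%, and the TATA box in 11.4% against 13.6%.

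By the brightest probe set of each gene on the A array, the 19 genes with NRF1 letters had a median difference of -0.00861 and 9 of them were positive. The 49 genes with a promoter but without these letters had a median of 0.00653, with 27 positive. The range was -0.194 to 0.263 with the letters and -0.299 to 0.214 without them, so on that array the limb differences of both kinds of gene lay around 0. On the B array 3 genes with the letters had a median of -0.09925, with 1 positive. The 12 without them had a median of 0.1105, with 9 positive and a range of -0.743 to 0.883.

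Complex I is the largest of the complexes and has 34 tested genes on the A array. Some of its core subunits carry the flavin and iron-sulfur clusters. The core subunits among the members gave 16 probe sets, 12 of them positive, with a median of 0.0748. Ndufs1, which holds several of the clusters, had signals of 1511, 1213 and 1165 in forelimb 11, 13 and 25, against 1384, 1466 and 1405 in hindlimb 12, 14 and 26 (difference 0.14 ± 0.13 SE). Hindlimb lay between the forelimb samples. Ndufv1, the subunit that binds NADH and flavin, had 1077, 1083 and 1082 in forelimb, against 1100, 1158 and 1228 in hindlimb on the probe set 1415966_a_at, so its limbs did not overlap (0.10 ± 0.11, limma adjusted p = 0.981). Its other probe sets gave 0.0754 and -0.0494. Ndufv2, its partner in the NADH-binding module, had 2610, 2407 and 1715 in forelimb, against 1818, 1824 and 1642 in hindlimb on 1438159_x_at (-0.32 ± 0.15, limma adjusted p = 0.918). The other probe sets of Ndufv2 gave 0.0395 and 0.10, so the direction depended on the probe set.

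The 49 probe sets of the other complex I subunits had a median of 0.0337, with 32 positive. Ndufa12, an accessory subunit next to the NADH module, was 1 of the 3 members with an unadjusted p under 0.05, beside Cox5a and Atp5g1. It had 2009, 2363 and 2009 in forelimb, against 2654, 2320 and 2860 in hindlimb on 1418814_s_at (0.29 ± 0.12, limma adjusted p = 0.860). Hindlimb 14 lay below forelimb 13, so the limbs overlapped. The other 3 Ndufa12 probe sets gave 0.0317, -0.0280 and -0.0277. Ndufab1, the mitochondrial acyl carrier protein that is also a complex I subunit, had 2020, 2099 and 2049 in forelimb, against 2352, 2355 and 2216 in hindlimb on 1428159_s_at (0.16 ± 0.10, limma adjusted p = 0.953). These values did not overlap. Its other tested A array probe set overlapped between the limbs (0.0812 ± 0.181), and its B array probe sets gave 0.25 and -0.74. Ndufa7, another accessory subunit, had 5 tested probe sets. On 1422976_x_at its forelimb signals of 3163, 2751 and 2796 lay above the hindlimb signals of 2622, 2727 and 2576 (-0.13 ± 0.10, limma adjusted p = 0.964), and the other 4 gave 0.00473 to 0.11. Ndufb9, a membrane arm subunit, had 3720, 3560 and 3404 in forelimb, against 5029, 3889 and 3629 in hindlimb on 1452184_at (0.22 ± 0.13). Hindlimb 12 stood highest there, and its other tested probe set gave 0.00448.

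Ndufa4 was first assigned to complex I and is now counted as a complex IV subunit, and Ndufa4l2 is its hypoxia-responsive relative. Both stand under complex I in the counts and medians given here, by their names. Ndufa4 on the A array had 4768, 3768 and 4051 in forelimb, against 4542, 4748 and 4460 in hindlimb (0.13 ± 0.11). Ndufa4l2 on the B array had 147, 114 and 126 in forelimb, against 209, 114 and 126 in hindlimb (0.14 ± 0.35). Hindlimb 12 was the sole hindlimb sample above the forelimb samples there.

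Assembly factors help to build complex I without staying in it. Ndufaf4, whose promoter letters are printed above, had 549, 521 and 561 in forelimb, against 678, 680 and 619 in hindlimb on 1427997_at (0.26 ± 0.12, limma adjusted p = 0.910). The limbs did not overlap. Its other probe set, 1435333_at, had 250.4, 285 and 259 in forelimb, against 425, 231 and 346 in hindlimb (0.27 ± 0.20), with hindlimb 14 lowest of all 6. Ndufaf5, a methyltransferase-like factor, gave -0.14, and Ndufaf1, Ndufaf3 and Ndufaf7 gave -0.0107, -0.0114 and -0.0638.

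Complex II is also an enzyme of the tricarboxylic acid cycle. Sdha, its flavoprotein, had 2302, 2362 and 2084 in forelimb, against 2643, 2417 and 2512 in hindlimb on 1426688_at (0.17 ± 0.11, limma adjusted p = 0.955), with no overlap between the limbs. On 1426689_s_at Sdha had 1075, 1455 and 1168 against 1472, 1491 and 1174 (0.16 ± 0.15). The tested B array probe set went the other way, with 737, 925 and 616 in forelimb, against 770, 685 and 430 in hindlimb (-0.28 ± 0.23), and its limbs overlapped. Sdhb, the iron-sulfur subunit, had 3174, 2875 and 3109 in forelimb, against 3396, 2974 and 2863 in hindlimb (0.00889 ± 0.107). Both membrane anchors gave values of either sign. Sdhc had 1620, 2206 and 1997 against 1656, 2263 and 1456 on 1435986_x_at (-0.13 ± 0.17) and gave 0.0595 on 1448630_a_at. Sdhd had 1846, 2189 and 1660 against 1788, 1635 and 1634 on 1428235_at (-0.16 ± 0.13) and gave 0.0788 on 1437489_x_at.

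In complex III the core proteins Uqcrc1 and Uqcrc2 and the Rieske iron-sulfur protein Uqcrfs1 gave positive differences on all 4 of their probe sets, while the other subunits had 5 of 11 positive and a median of -0.0188. Uqcrc1 had 2264, 2735 and 2361 in forelimb, against 2402, 3284 and 2931 in hindlimb (0.22 ± 0.13, limma adjusted p = 0.952). Uqcrc2 had 2321, 1745 and 1730 in forelimb, against 2519, 1863 and 2510 in hindlimb on 1435757_a_at (0.25 ± 0.16) and gave 0.00144 on its other probe set. Uqcrfs1 had 1662, 2045 and 1701 against 1951, 2774 and 1580 (0.19 ± 0.18). The limbs overlapped for all 3 genes.
Uqcrb, which helps to form the ubiquinone site, had 1558, 1589 and 1615 in forelimb, against 1918, 1750 and 1677 in hindlimb on 1416337_at (0.16 ± 0.11, limma adjusted p = 0.959), with no overlap, and 0.0137 on its brighter probe set. Uqcrq, a small subunit, gave the widest spread among the probe sets of a gene on the A array, from -0.22 to 0.32. Its brightest probe set, 1430326_s_at, had 1606, 1524 and 1433 against 1501, 1506 and 1633 (0.0238 ± 0.111), while the other 3 had mean signals under 500.

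Complex IV holds the member with the largest positive A array difference. Cox5a, a subunit next to the catalytic core, had 838, 1012 and 1171 in forelimb, against 2012, 1069 and 1323 in hindlimb on 1439267_x_at (0.49 ± 0.21, limma adjusted p = 0.877). Hindlimb 12 stood far above the rest, and without it the difference was 0.25. On 1415933_a_at Cox5a had 3878, 4090 and 3874 against 4868, 4522 and 4134 (0.19 ± 0.098), with no overlap. The third, 1448153_at, had 4210, 6244 and 5443 against 5121, 5916 and 4546 (-0.0183 ± 0.147). Cox5b, another nuclear subunit, had 5104, 5262 and 4945 in forelimb, against 6058, 5653 and 5303 in hindlimb on 1456588_x_at (0.15 ± 0.091, limma adjusted p = 0.952), which did not overlap. Its other 4 tested probe sets gave 0.0460 to 0.24.

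Paralogue pairs of complex IV were compared gene by gene, since levels of different probe sets cannot be ranked. Cox4i1, the common form of subunit 4, had a difference of 0.0314, and Cox4i2, the form known from lung and low oxygen, had 251, 241 and 258 in forelimb, against 232, 241 and 196 in hindlimb (-0.15 ± 0.14). Cox6a1, the common form, gave -0.0271 and 0.0114. Cox6a2, the heart and skeletal muscle form, had 77.3, 182 and 232 in forelimb, against 78.4, 112 and 101 in hindlimb (-0.51 ± 0.29, limma adjusted p = 0.940). Forelimb 11 was the lowest of the 6, so the limbs overlapped, and the difference was -0.25 without forelimb 25 and -0.89 without forelimb 11. The summed signal of 11 muscle marker genes on that array was 2649, 1919 and 2049 in forelimb, against 1502, 1925 and 1665 in hindlimb, with 8 of 13 probe sets bright enough to be tested and 0 of them past the adjusted threshold. Its part in the Cox6a2 values was not tested.
Cox6b1 gave -0.0614 and -0.00287, and Cox6b2, a testis form, gave -0.00337. Cox7a2, the common form, gave 0.0502 and -0.14, and Cox7a2l, a factor that joins complexes III and IV, gave -0.10 to 0.12 on 3 probe sets. Cox7a1, the muscle form, was dim at 13.3 to 34.0 on all 6 arrays and was not tested. Cox8a gave -0.0203 and -0.0862, and Cox8b, another muscle form, was dim at 7.28 to 37.1 and not tested. Cox8c, a testis form, gave -0.0163 on the A array, while its B array probe set had 149, 394 and 1150 in forelimb, against 728, 828 and 543 in hindlimb (0.68 ± 0.51). All hindlimb signals of that probe set lay within the range of the forelimb ones. Cox7b2, a testis form found on the B array, had 133, 15 and 22.9 in forelimb, against 111, 106 and 52.1 in hindlimb (0.66 ± 0.64).

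**Figure D3:**
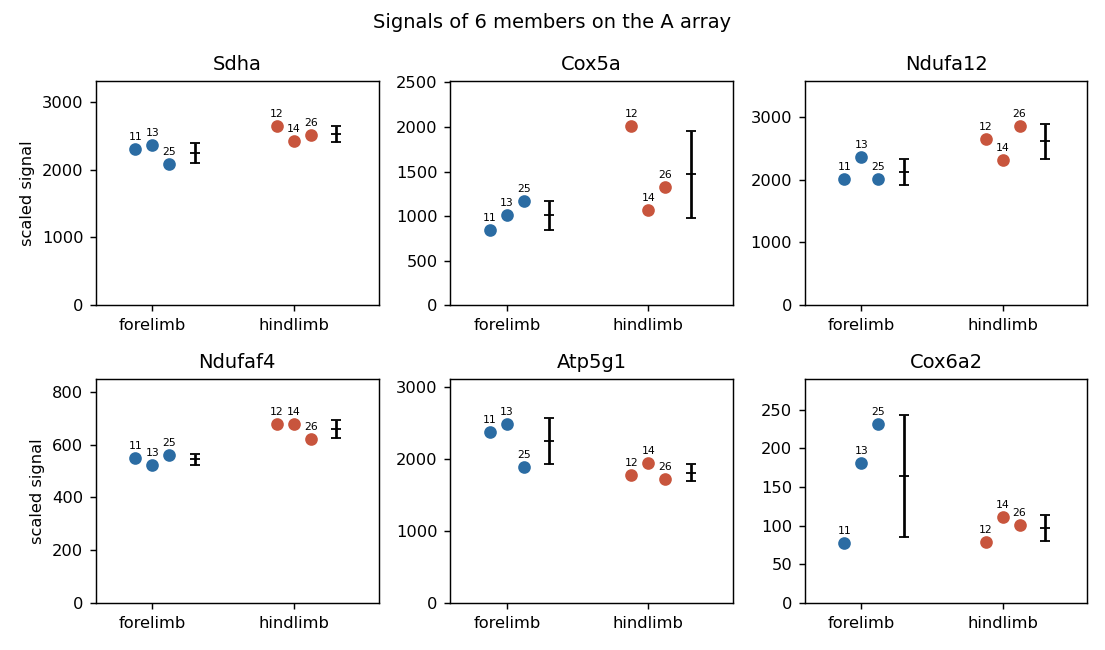
Scaled signals on the A array of 6 genes, each on its tested probe set of smallest p: Sdha, Cox5a, Ndufa12, Ndufaf4, Atp5g1 and Cox6a2, by limb; points are samples with their numbers, and bars are the mean ± SD of 3 samples. The limbs do not overlap for Sdha and Ndufaf4, and they overlap for the other genes.

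In ATP synthase the F1 head, which makes ATP, had a median of 0.0249 over 9 probe sets. Atp5a1, its alpha subunit, had 4271, 4221 and 4172 in forelimb, against 4628, 4812 and 4352 in hindlimb on 1449710_s_at (0.12 ± 0.090, limma adjusted p = 0.964), without overlap, and 0.0249 and 0.21 on its other 2. Atp5b, the catalytic beta subunit, had 7306, 7322 and 6958 against 7465, 9463 and 6776 (0.12 ± 0.12). Atp5d, the delta subunit of the central stalk, had 3791, 4220 and 4296 against 3654, 3805 and 3421 on 1456580_s_at (-0.18 ± 0.099) and gave -0.15 on its other probe set. Both of its probe sets overlapped between the limbs.
The membrane ring of c subunits is encoded by 3 genes that give the same mature protein. Atp5g1 had 2369, 2492 and 1885 in forelimb, against 1771, 1938 and 1724 in hindlimb (-0.30 ± 0.13, limma adjusted p = 0.877), with hindlimb 14 above forelimb 25. On the B array a dim Atp5g1 probe set had 103, 66.4 and 59.3 in forelimb, against 141, 130 and 87.1 in hindlimb (0.49 ± 0.43), the other direction. Atp5g2 gave -0.0794 and -0.13, and Atp5g3 gave 0.0697 from signals of 10121, 9729 and 9169 in forelimb, against 9977, 10739 and 9746 in hindlimb. The c-ring probe sets on the A array had 1 of 4 positive differences and a median of -0.105. The peripheral stalk, which holds the head still, had 6 of 7 positive and a median of 0.0189, and the other subunits had 2 of 8 and a median of -0.0399. Its Atp5o, the subunit that confers oligomycin sensitivity, gave -0.15 and 0.0382.

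Complete separation of the 3 samples of each limb, in either direction, was found for 9 of the 148 members on the A array. In 8 of them (5.41%) every hindlimb sample was above every forelimb sample, against 4.94% of all tested probe sets. In 1 (0.676%), that of Ndufa7, forelimb was above, against 6.1% of all. On the B array hindlimb was above in 2 of 20, against 4.81% of all, and forelimb in 0, against 6.14%. Those 2 were Ndufa3, an accessory complex I subunit, with 244, 245 and 190 in forelimb, against 294, 321 and 301 in hindlimb (0.39 ± 0.23), and Ndufaf8, an assembly factor, with 1883, 1738 and 1788 against 2020, 2034 and 1991 (0.16 ± 0.12). For Ndufa3 the 2 probe sets on the A array gave -0.0297 and -0.0503. The other tested Ndufaf8 probe set on the B array, 1448003_at, went the other way (-0.19 ± 0.22), and its limbs overlapped.

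The B array holds fewer and mostly dimmer members, and its intervals were wider. The median difference of the 20 was 0.0975, with 13 positive, against -0.0138 over all tested probe sets, and the median standard error was 0.241. Without hindlimb 12 the median of the 20 was 0.0016 with 10 positive, and without forelimb 25 and forelimb 13 it was 0.0309 and 0.0338, each with 11. It was 0.0678 without hindlimb 14, 0.1587 without forelimb 11 and 0.1676 without hindlimb 26. For 4 of the 20 (20%) the 95% interval lay within 1.5-fold, as it did for 35.0% of all. The widest values were those of Ndufb2, a membrane arm subunit, with 409, 101 and 335 in forelimb, against 509, 335 and 645 in hindlimb (0.88 ± 0.41, limma adjusted p = 0.904), and of Ndufab1, with 266, 130 and 284 against 115, 316 and 31.4 on 1458678_at (-0.74 ± 0.55). Without forelimb 13 the Ndufb2 difference was 0.35, and its 2 probe sets on the A array gave 0.15 and 0.0555. Atp5j2, the f subunit of ATP synthase, had 914, 641 and 798 against 617, 575 and 655 on the B array (-0.32 ± 0.17), and gave -0.0144 and 0.0785 on the A array.

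Probe sets of a gene often gave different signs. Of the 43 genes with several tested probe sets on the A array, 21 had both signs, and the median span between a gene's probe sets was 0.148. The widest spans were 0.541 for Uqcrq, 0.512 for Cox5a and 0.425 for Ndufv2. Probe set names ending in _x_at or _s_at mark probes shared with other transcripts, and 43 of the 148 members had such names, 26 and 17 of each, so their signals may hold those of related genes. The size of the difference was larger in dim members, with a median of 0.145 for the 24 with mean signals under 500, 0.0741 for the 41 from 500 to 2000 and 0.0690 for the 83 above.

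Samples of 1 limb stood further apart than the median difference between the limbs. For each member the deviation of a sample from the mean of the 6 arrays was taken on the log2 scale. On the A array the median deviation over members was 0.0308, -0.0127 and -0.0560 in forelimb 11, 13 and 25, and 0.110, -0.0249 and -0.0542 in hindlimb 12, 14 and 26. The largest of these, that of hindlimb 12, compares with a median of -0.0166 over all tested probe sets on that array. Hindlimb 12 was the highest of the 6 arrays for 62 of 148 members (41.9%), against 15.9% of all tested probe sets, and for 33 of 65 in complex I (50.8%). Its median deviation was 0.119 in complex I, 0.104 in complex IV, 0.0682 in complex V, 0.0279 in complex II and 0.0275 in complex III. Hindlimb 26 was highest for 8 members and lowest for 37. On the B array hindlimb 12 had a median deviation of 0.132, but forelimb 11 had 0.114, and forelimb 13 had -0.153.

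**Figure D4:**
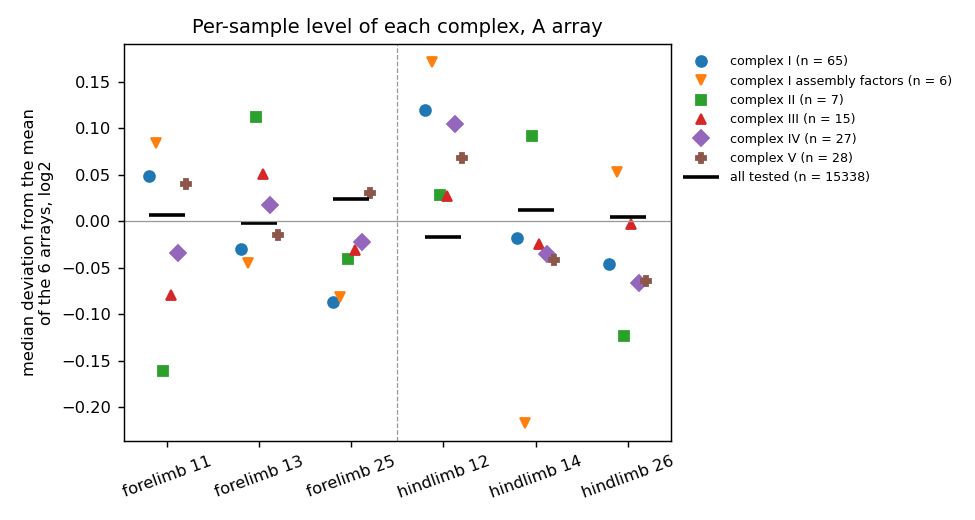
Median deviation of each sample from the mean of the 6 A arrays, in log2 units, over the tested members of each complex (coloured symbols, number of probe sets in the key) and over all 15338 tested probe sets (black bars); the dashed line parts forelimb from hindlimb. Hindlimb 12 lies above 0 in every complex, and the other hindlimb samples do not.

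Without hindlimb 12 the median difference of the members on the A array was -0.0166 and 65 of 148 were positive. In complex I the median was then -0.0136, with 28 of 65 positive, and it was 0.0173 with 34 positive without forelimb 25. Without forelimb 11, the sample placed by its title, the members' median was 0.0444, with 94 positive. No member passed in any of these fits. The summed signal of the limb mesenchyme markers on the A array was lowest in hindlimb 12, at 14219, and ran from 15240 to 18058 in the other samples. On the B array the sum of 3 of these markers was 27930 in hindlimb 12, which lay between 25616 in hindlimb 26 and 29634 in hindlimb 14. The 3′ signal over the 5′ signal, a sign of RNA quality, is given as log2. For Gapdh on the A array it was -0.269 in hindlimb 12, between the other hindlimb samples at -0.300 and -0.263, and -0.239 to -0.0778 in forelimb. For Actb it was 0.236 in hindlimb 12, between the other hindlimb samples at 0.270 and 0.222, and 0.118 to 0.261 in forelimb. On the B array hindlimb 12 had -0.113 for Gapdh and 0.258 for Actb. The other samples there ran from -0.253 to -0.0728 and from 0.208 to 0.320. The summed erythroid markers on the A array were 70461 in hindlimb 12, 70552 and 66630 in the other hindlimb samples and 61694 to 67664 in forelimb. Hindlimb 12 was also the lowest on that array in the sums of muscle (1502), endothelium (1736) and nerve markers (888). It was not the lowest in those of ectoderm (4750) or macrophage markers (2086). The part of these values in the profile of hindlimb 12 was not tested.

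Genes that serve the chain without being members were counted from lists. Regulators of mitochondrial biogenesis, which drive transcription and upkeep of mitochondrial DNA, had 26 tested probe sets on the A array and 8 on B, with 0 past the adjusted threshold and 0 at an unadjusted p under 0.05 (limma), and medians of 0.0305 and 0.00188. Nrf1, which binds the letters printed above, had 587, 612 and 654 in forelimb, against 555, 522 and 493 in hindlimb on 1434627_at (-0.23 ± 0.12, limma adjusted p = 0.940), without overlap. Its other A array probe sets gave 0.30 and 0.0217, and the B array one gave -0.0751. Tfam, which packages mitochondrial DNA, had 1204, 1068 and 1025 against 1224, 1328 and 1100 (0.14 ± 0.13). Gabpa, the ETS factor of this set, gave 0.13 and 0.0745, and Ppargc1a, the coactivator PGC-1alpha, gave -0.00985 and 0.28. Gabpb1 gave -0.18 and -0.0181. Yy1 gave -0.0161, -0.20, -0.12 and -0.15 on the A array, with forelimb above hindlimb in all samples on the last, 1457834_at. Over the 26 A array probe sets of this list, 14 were positive and 12 negative.

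Further assembly factors and the electron carriers had 44 tested probe sets on the A array, 27 positive, with a median of 0.0479. None passed the adjusted threshold and 3 of the 44 had an unadjusted p under 0.05 (limma), a share of 6.82% beside 5.54% of all tested probe sets. They were Cox17, a copper chaperone of complex IV, with 542, 679 and 595 in forelimb, against 885, 722 and 830 in hindlimb (0.41 ± 0.14, adjusted p = 0.685); Cox15, a haem A synthesis enzyme, with 0.38 on 1 of 4 probe sets and -0.0387 to 0.26 on the others; and Atpaf2, an F1 assembly factor, with 197, 288 and 258 against 342, 322 and 338 (0.40 ± 0.16). The limbs did not overlap on these 3 probe sets. Over the 44, hindlimb was above in 4 (9.09%) and forelimb in 1 (2.27%), against 4.94% and 6.1% of all tested probe sets. Cytochrome c (Cycs), the carrier between complexes III and IV, gave 0.0947, 0.11 and 0.14 on the A array, and its B array probe set gave -0.19. Of this list 20 were tested on the B array, with a median of 0.00641, 0 past the adjusted threshold and 1 at an unadjusted p under 0.05 (limma), or 5% beside 5.54% of all. This was Sdhaf3, an assembly factor of complex II, with 803, 1027 and 984 against 1257, 1111 and 1218 (0.34 ± 0.15, limma adjusted p = 0.894). Over the 20, hindlimb was above in 4 (20%) and forelimb in 0, against 4.81% and 6.14% of all tested probe sets on that array.
Tricarboxylic acid cycle enzymes, which feed the chain, had a median of 0.0183 over 28 tested probe sets on the A array and -0.0505 over 10 on B, with 0 past the adjusted threshold and 0 and 1 at an unadjusted p under 0.05 (limma), against 5.54% of all tested probe sets on each array. The 1 was Suclg2, a subunit of succinyl-CoA ligase, at 0.25 ± 0.11 on the B array (limma adjusted p = 0.896) and -0.0325 on A. A list of ADP/ATP and phosphate carriers also held Vdac1, Vdac2, Vdac3, Ucp2, Ckmt1 and Ckmt2. It had 18 tested probe sets on the A array, 14 positive, with a median of 0.0994, and 0 past the adjusted threshold. These were of 6 genes, so a gene with several probe sets was counted several times. At an unadjusted p under 0.05 there was 1 of the 18 (5.56%), beside 5.54% of all. It was Slc25a5, an ADP/ATP carrier, with 718, 677 and 674 against 1026, 843 and 857 on 1438360_x_at (0.38 ± 0.13, limma adjusted p = 0.684), and its other 7 probe sets gave 0.0112 to 0.19. The sole probe set tested on the B array, of the phosphate carrier Slc25a3, gave 0.0872. Of the subunits encoded in mitochondrial DNA 1 probe set was found, ND5 of complex I, with 12914, 7268 and 9284 in forelimb, against 9520, 8556 and 13139 in hindlimb (0.0985 ± 0.199).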

How the data were processed

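Per the labels, the authors deposited MAS5.0 signal intensities, which are linear; the label of forelimb 11 on the A array does not say so. Their 2% trimmed mean was 350.1 on each A array and 70 on each B array, which shows scaling within a design. The sources used here give no detection calls or software version.

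Each array was scaled to a trimmed mean of 500 (factors of 1.428 and 7.142), 32 was added and log2 was taken. Control probe sets (64 per design) were left out, and a probe set was tested if 3 or more of the 6 arrays gave a scaled signal of 100 or more. Between 65.5% and 68.1% of probe sets reached 100 on an A array and 72.7% to 75.5% on a B array. Limbs were compared within a design with R 4.3.3 and limma 3.58.1 (two-sided, lmFit and eBayes with trend) with Benjamini-Hochberg adjustment, checked on simulated data. Figures and counts used Python 3.11.15, pandas 2.3.3 and matplotlib 3.10.9. Symbols come from the platform annotation; all 179 members had an entry in the RefSeq gene table. Updated symbols added or removed 0 members.

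Members and lists were chosen with earlier results of these data known. Named were members past the threshold, the 3 smallest p of each complex and design, the Sdh genes, paralogue sets, and genes of mixed sign with separated limbs; further examples were picked after their values were seen. The alternatives are in the closing section.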

Additional observations from a re-analysis of the deposited data

How the results depend on the processing

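No member passed the adjusted threshold under any of the 12 alternatives run per design or with any of the 6 samples left out in turn. Over all probe sets the count of 5 on the A array was 1 with no filter, 14 with array weights, 8 with a block of consecutive sample numbers and 3 to 9 with a sample left out (9 without hindlimb 12). The count of 2 on the B array was 1 with no filter, 0 without the trend, 4 with that block and 1 to 4 with a sample left out (4 without hindlimb 12). The cause was not tested. Forelimb and hindlimb share no sample number. The block joins samples with consecutive numbers in their titles (11 and 12, 13 and 14, 25 and 26), and the labels do not say that these belong together. With this block, no member passed. Each block holds 1 forelimb and 1 hindlimb sample, so it cannot change a difference. The members’ medians were therefore bound to be as without it. The complex I median on the B array was 0.0066 to 0.2193 with a sample left out, the lower value without hindlimb 12 and the upper without forelimb 11. The median of complex I assembly factors on the B array was 0.113 with one probe set per gene, and that of complex V was -0.322 with the filter at 200, where fewer probe sets are left. Medians over members on the A array ran from -0.0166 to 0.0575, and for complex I from -0.0136 to 0.075, the lower end of both without hindlimb 12. With arrays centred on the median the share of positive members on the A array was 66.9%, and with quantile normalization 52.7%, against 58.8%. Of 65 named probe sets, 24 had the other sign under at least 1 alternative (55 of 1137 values), each from a difference smaller than its standard error, and 0 passed the threshold. Among the 1137 are values without the trend, with the block and with adjustment over both designs, where a difference cannot change. MAS5.0 signals of dim probe sets vary most, and differences under about 1.5-fold could not be resolved for most B array members.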
